A study of Danio rerio with 10 samples.

Results

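SAGA is a large coactivator complex that RNA polymerase II genes use to start transcription. One of its modules acetylates histones, another removes ubiquitin from histone H2B, and a core of histone-fold proteins related to those of the general factor TFIID holds them together and contacts TBP. Genes for 10 of its subunits were described here in erythroid cells of zebrafish embryos: 6 of the core module (supt7l, supt3h, supt20, tada1, taf5l and taf6l), 3 of the acetyltransferase module (tada2b, tada3l and sgf29) and 1 of the deubiquitinase module (usp22). They were chosen by the FPKM of supt7l, whose rise in mutants was one of the largest, so its difference is given as a description without a p-value, and the other 9 were chosen for belonging to the same complex. The members were selected on their symbols: 9 of them were listed as written and 1, tada1, as TADA1, so that all 10 had a row among 32103 gene IDs.

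RNA of gata1-positive cells was measured at 24 hours post fertilization in 5 libraries from embryos mutant for sf3b1 (replicates 1, 3, 4, 5 and 6) and 5 from their siblings, titled wild type (replicates 2 to 6). The sf3b1 protein is the largest of SF3b, the part of the U2 particle that holds the intron branch point during splicing. The mutant allele, the fish strain, the means of marking gata1 cells and the pooling of embryos are not given in the sources used here, and nothing says that the libraries are of separate clutches. The p-values therefore reflect the spread among these samples alone, which may be technical. Sibling 2 is titled wild type but tagged as mutant, and was kept with the siblings. The values are FPKM, fragments per length of transcript and per size of library, which allow levels to be compared between genes.

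The label check and the makeup of the libraries were as follows. sf3b1 had 19.0 ± 2.17 FPKM in mutants and 40.2 ± 3.24 FPKM in siblings (SD, n = 5 each), and sibling 2 had 41.0 FPKM, above every mutant library (two-sided exact permutation p = 0.0079, the smallest that 252 relabellings allow). FPKM sums ran from 293816 to 422870 per library. Relative depth was read from the commonest ratio of low values to those of mutant 1. It ran from 0.578 in mutant 3 to 1.26 in sibling 6. The bin of the commonest ratio held only 3.97% (mutant 5) to 7.84% (mutant 6) of the low values, so these depths are rough. All 12 erythroid markers were above 0, with summed levels of 2560 to 8974 FPKM in mutants and 5189 to 23179 FPKM in siblings. Summed levels of 17 epidermal markers were 333.0 to 1075 FPKM in mutants and 307.0 to 740.8 FPKM in siblings, highest in mutant 1 and sibling 2. Myeloid markers (11 rows) lay at 164.9 to 351.7 FPKM in mutants and 409.4 to 760.0 FPKM in siblings. By limma at an adjusted p under 0.05, by which 5.59% of all rows tested rose and 8.74% fell, 7 of these 11 myeloid rows fell. Of the other lists, 3 of 10 endothelial rows (mrc1a, stab1 and stab2) and 1 of 5 tested muscle rows (acta1b) fell. Of the 12 erythroid rows only 1 (urod) fell by this test, but the mean of each was lower in mutants. Their ratios of means ran from 0.27 (hbae1) to 0.77 (epor). By the same test 0 of 14 tested epidermal and 0 of 8 neural rows changed, and no row of these 6 marker lists rose. mrc1a, a scavenger receptor gene of endothelium, averaged 4.52 ± 0.49 FPKM in mutants and 27.1 ± 7.68 FPKM in siblings (SD, n = 5 each; limma adjusted p = 3.13e-05). The part of these other cells in the results below was not tested, and in bulk samples fewer cells of a type and less RNA per cell cannot be told apart.

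supt7l stood at a much higher level in every mutant library than in any sibling library. It encodes a core subunit whose histone fold pairs with that of TAF10 in human SAGA. supt7l (ENSDARG00000013461, GRCz10 chromosome 17, 40902972 to 40923793) had 10.7, 17.2, 17.4, 24.0 and 21.3 FPKM in mutants 1, 3, 4, 5 and 6, against 2.26, 3.35, 2.69, 3.55 and 2.27 FPKM in siblings 2 to 6. The groups did not overlap, and mutant 1, the lowest mutant, was still above the highest sibling. The means were 18.1 ± 5.03 FPKM in mutants and 2.82 ± 0.60 FPKM in siblings (SD, n = 5 each), a 6.42-fold ratio of means and a difference of 2.29 (SE 0.20) on the log2(FPKM + 1) scale. That scale understates changes of low genes.

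Among all 13003 rows that averaged 1 FPKM or more, supt7l had the 21st largest rise by this difference. Its level ranked 2064th in mutants and 8788th in siblings. Mutant 1, with the lowest supt7l of the mutants, also had the lowest summed erythroid markers (2560 FPKM) and the highest epidermal ones (1075 FPKM), and without it the difference was 2.46. Sibling 2, whose tag says mutant, had the lowest supt7l of all 10 libraries, and counting it as a mutant gave a difference of 1.82.

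**Figure D1:**
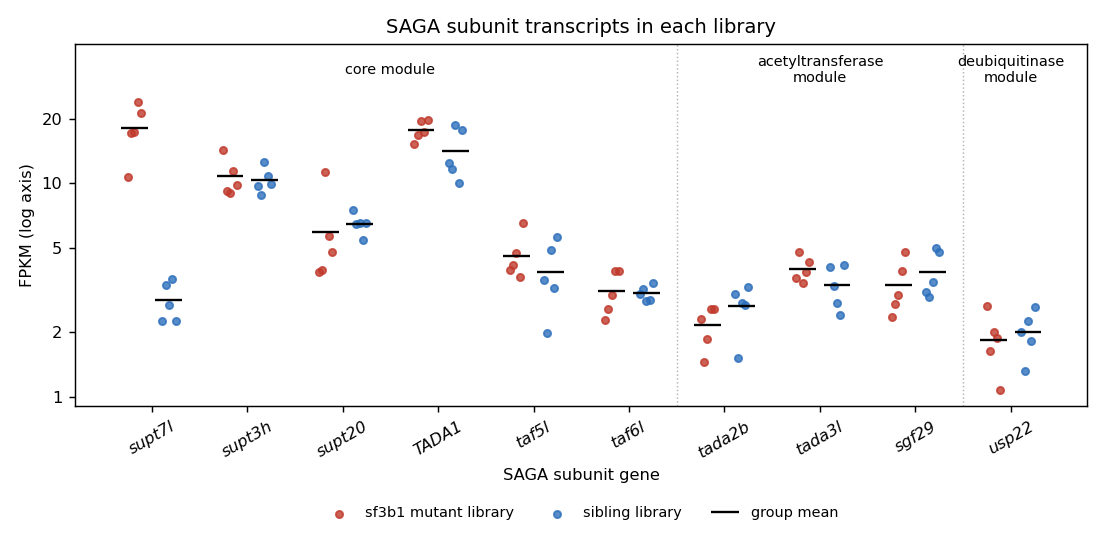
FPKM on a log axis of the 10 SAGA subunit genes in each of 5 mutant (left, red) and 5 sibling (right, blue) libraries, with the group mean as a black bar. supt7l is the gene whose groups do not overlap, at 10.7 to 24.0 FPKM in mutants and 2.26 to 3.55 FPKM in siblings.

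None of the other 9 members passed the test. Each row was tested with limma on log2(FPKM + 1) and p-values were adjusted over all 13003 rows by the Benjamini-Hochberg method, with a threshold of 0.05. By that rule 5.59% of all rows rose, 8.74% fell and 14.3% changed. Of the 9 members 0 rose and 0 fell, and 9 rows are too few to tell this from those shares. Their adjusted p-values ran from 0.236 to 0.968, and 0 of 9 had an unadjusted p under 0.05, as 29.0% of all rows did (11.4% higher and 17.6% lower). The mutant and sibling libraries overlapped for all 9. Over all rows 12.2% had groups that did not overlap (4.98% with every mutant above and 7.26% with every mutant below the siblings). Here too 9 rows are too few to show a departure from that share. The median difference of the 9 was 0.01, beside -0.06 over all rows tested. Every 95% interval of the 9 differences lay between -0.72 and 0.73. This leaves out a 2-fold change of FPKM + 1 in either direction, without showing that the levels are equal. For members of low level, a 2-fold change of FPKM itself is a smaller step on this scale.

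In the core module the largest of these differences was that of tada1, which encodes the histone-fold partner of TAF12. tada1 (ENSDARG00000100031, chromosome 2, 116698 to 120305) had 15.3, 16.8, 19.6, 17.3 and 19.7 FPKM in mutants, against 12.5, 11.7, 18.8, 9.999 and 17.7 FPKM in siblings. Siblings 4 and 6 lay within the range of the mutants and the other 3 siblings below it. The difference was 0.34 (SE 0.18, limma adjusted p = 0.236), with a 95% interval from -0.05 to 0.73.

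supt3h encodes a protein with a pair of histone folds that contacts TBP in yeast SAGA. It had 9.05 to 14.3 FPKM (median 9.86) in mutants and 8.78 to 12.6 FPKM (median 9.97) in siblings, a difference of 0.04 (SE 0.15, limma adjusted p = 0.882). Its locus on chromosome 17 (5052359 to 5267079) overlaps runx2a, a Runt-family transcription factor gene, which averaged 0.20 FPKM in mutants and 0.11 FPKM in siblings. supt20, which encodes a scaffold subunit, had 3.85, 3.91, 11.3, 5.68 and 4.78 FPKM in mutants, against 7.53, 6.46, 6.49, 5.42 and 6.499 FPKM in siblings. The siblings lay close together, while mutant 4 stood above all other libraries and 3 of the 5 mutants below every sibling. The difference was -0.20 (SE 0.24, limma adjusted p = 0.617).

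taf5l and taf6l encode SAGA's counterparts of the TFIID subunits TAF5 and TAF6. taf5l had 3.65 to 6.49 FPKM (median 4.13) in mutants and 1.99 to 5.58 FPKM (median 3.53) in siblings, a difference of 0.23 (SE 0.22, limma adjusted p = 0.536). For taf6l the values were 2.29 to 3.899 FPKM (median 3.005) in mutants and 2.81 to 3.40 FPKM (median 3.012) in siblings, a difference of 0.01 (SE 0.15, limma adjusted p = 0.968). The mutants of taf6l spread over a wider range than its siblings, on both sides of it.

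The acetyltransferase module did not pass the test in any of its 3 members. tada2b, the adaptor that is found in SAGA and not in the related complex ATAC, averaged 2.16 ± 0.49 FPKM in mutants and 2.65 ± 0.67 FPKM in siblings (limma adjusted p = 0.524). tada3l, the zebrafish gene of the adaptor ADA3, averaged 3.98 ± 0.55 FPKM in mutants and 3.33 ± 0.76 FPKM in siblings (limma adjusted p = 0.420). sgf29, whose Tudor domains bind methylated histone H3, averaged 3.34 ± 0.97 FPKM in mutants and 3.83 ± 0.96 FPKM in siblings (limma adjusted p = 0.631; SD, n = 5 for each gene and group). Their differences were -0.20, 0.21 and -0.16. tada3l overlaps arpc4l and agtrap, and supt20 overlaps exosc8, so reads there may be divided between genes; none of these 3 neighbours passed the test.

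usp22, the ubiquitin protease of the deubiquitinase module, was the lowest of the 10 members in both groups. It had 2.66, 1.63, 2.002, 1.88 and 1.07 FPKM in mutants, against 2.004, 1.33, 2.26, 1.82 and 2.64 FPKM in siblings. The groups covered nearly the same range, and the difference was -0.09 (SE 0.19, limma adjusted p = 0.809).

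**Figure D2:**
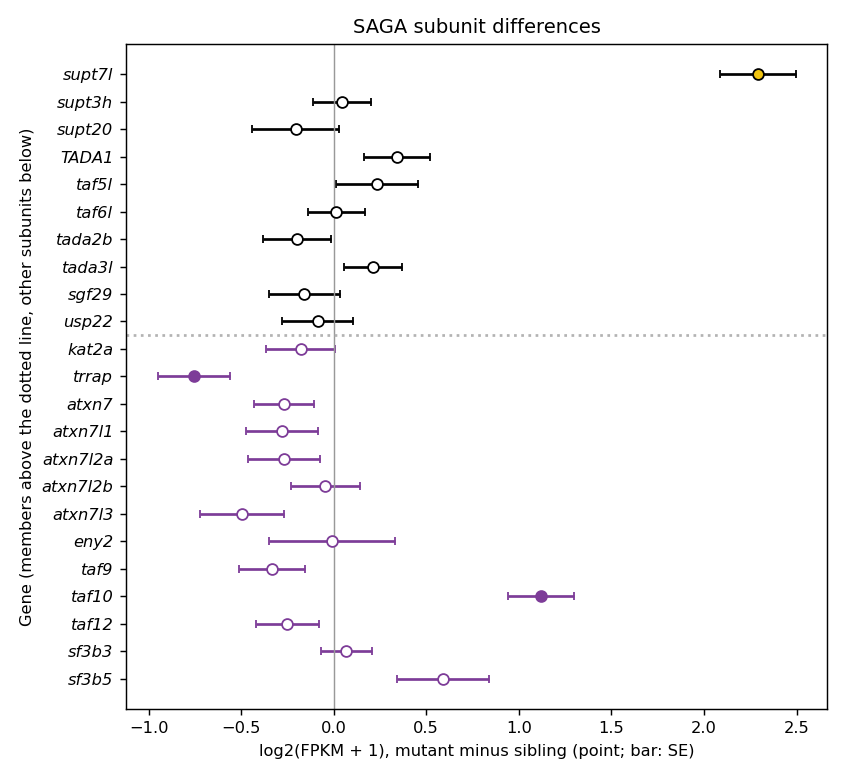
Difference of log2(FPKM + 1), mutant minus sibling, with its SE for the 10 members (black, above the dotted line) and 13 other SAGA subunit rows (purple, below); filled purple points passed the test and the yellow point is supt7l, which was chosen for its difference. The other 9 members lie between -0.20 and 0.34, while taf10 lies at 1.12 and trrap at -0.76.

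The order of the levels differed between the groups mainly through supt7l. In mutants supt7l came first, with a range that overlapped that of tada1 (17.7 ± 1.90 FPKM), and tada1 did not overlap the next gene, supt3h (10.8 ± 2.2004 FPKM). The mutant order went on with supt20, taf5l, tada3l, sgf29, taf6l, tada2b and usp22, each overlapping the next. In siblings tada1 (14.1 ± 3.89 FPKM) was first and overlapped supt3h (10.4 ± 1.43 FPKM), which did not overlap supt20 (6.48 ± 0.75 FPKM). After supt20 came taf5l, sgf29, tada3l, taf6l, supt7l in the 8th place, tada2b and usp22, again each overlapping the next.

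Of the FPKM summed over the 10 genes, supt7l took 25.01% ± 5.01 in mutants and 5.54% ± 1.79 in siblings (SD, n = 5 each). The sum of the other 9 was 53.5 ± 4.56 FPKM in mutants and 49.7 ± 7.45 FPKM in siblings, with overlapping ranges of 47.2 to 57.9 FPKM in mutants and 41.2 to 58.0 FPKM in siblings.

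**Figure D3:**
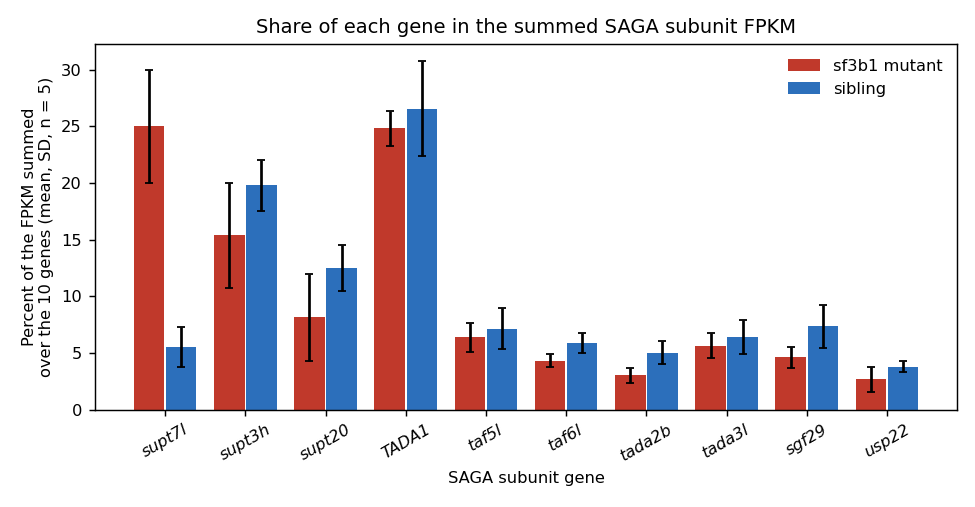
Percent that each gene took of the FPKM summed over the 10 SAGA subunit genes (mean and SD of 5 libraries), mutants left and siblings right. supt7l takes 25.01% in mutants and 5.54% in siblings, next to tada1 (TADA1) at 24.8% in mutants and 26.6% in siblings.

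Among the remaining SAGA subunits, taf10 rose and trrap fell. Of 14 rows matched for this list 13 averaged 1 FPKM or more; 1 rose and 1 fell, near the 5.59% and 8.74% of all rows, and their median difference was -0.25, beside -0.06 over all rows. taf10 encodes the histone-fold partner of SUPT7L, which TFIID also contains. taf10 (ENSDARG00000068641, chromosome 8, 25792753 to 25797967) had 40.6, 68.6, 80.5, 67.6 and 68.4 FPKM in mutants, against 27.2, 25.3, 30.8, 33.0 and 27.9 FPKM in siblings. As for supt7l the groups did not overlap and mutant 1 was the lowest mutant. The ratio of means was 2.26 and the difference 1.12 (SE 0.18, limma adjusted p = 0.0018). The call ended with sibling 2 counted as a mutant (adjusted p = 0.0740, the highest of 21 alternatives, which began at 2.13e-04). Within a library supt7l stood at 0.22 to 0.35 of the taf10 level in mutants and 0.082 to 0.13 of it in siblings.

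trrap encodes a very large scaffold that binds activators and serves both SAGA and the acetyltransferase complex TIP60. trrap (ENSDARG00000100623, chromosome 12, 17805997 to 17983242) had 2.70, 2.97, 4.45, 3.53 and 5.06 FPKM in mutants, against 5.38, 6.39, 9.46, 5.47 and 8.43 FPKM in siblings. Every mutant lay below every sibling, with a difference of -0.76 (SE 0.19, limma adjusted p = 0.0235). The call ended without mutant 3, sibling 4 or sibling 6 (adjusted p = 0.0586, 0.0618 and 0.0562) and with sibling 2 counted as a mutant (0.0531); over 21 alternatives the adjusted p ran from 0.0161 to 0.0618.

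The acetyltransferases themselves did not pass. kat2a averaged 4.304 ± 1.496 FPKM in mutants and 4.86 ± 0.64 FPKM in siblings (SD, n = 5 each; limma adjusted p = 0.572), and kat2b, at 0.36 FPKM in mutants and 0.56 FPKM in siblings, was too low to test. Of the histone-fold subunits shared with TFIID, taf9, the partner of TAF6L, had a difference of -0.33 (limma adjusted p = 0.246) and taf12, the partner of TADA1, one of -0.25 (limma adjusted p = 0.377). The 6 tested rows of the deubiquitinase module's anchors and cofactors (atxn7, atxn7l1, atxn7l2a, atxn7l2b, atxn7l3 and eny2) did not pass, with differences from -0.50 (atxn7l3) to -0.01 (eny2); those of atxn7l2b and eny2 were above 0 after quantile normalization (0.04 and 0.06). atxn7l3, which encodes an activator of the protease, averaged 2.69 ± 0.60 FPKM in mutants and 4.36 ± 1.601 FPKM in siblings (SD, n = 5 each, limma adjusted p = 0.168). It passed as lower without sibling 2 (0.0304) and without mutant 1 and sibling 2 together (0.0460). The call was also made with sibling 2 counted as a mutant (0.0377) and with the replicate block (0.0473).

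A pair of SF3b subunits, sf3b3 and sf3b5, are also SAGA subunits in human and fly cells, and they are partners of the mutated gene's product. sf3b3 had 22.4, 22.5, 28.01, 24.6 and 24.1 FPKM in mutants, against 25.5, 18.4, 25.1, 21.1 and 26.4 FPKM in siblings, with groups that overlapped (difference 0.07, limma adjusted p = 0.795). sf3b5 had 36.3, 26.5, 23.1, 25.7 and 36.9 FPKM in mutants, against 19.5, 13.1, 20.2, 13.7 and 34.8 FPKM in siblings. Sibling 6 lay among the mutants and the other 4 siblings below all of them. The difference of 0.59 (SE 0.25, limma adjusted p = 0.137) did not pass, and it passed without sibling 6 (0.80, adjusted p = 0.0266; over 21 alternatives 0.0266 to 0.299).

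The gene next to supt7l on the chromosome also rose. slc4a1ap, the gene of kanadaptin, starts 222 bases after the end of supt7l (ENSDARG00000034160, chromosome 17, 40924016 to 40948050). No other row lies within 741859 bases before supt7l. slc4a1ap had 4.77, 4.11, 6.03, 4.301 and 5.87 FPKM in mutants, against 1.90, 2.10, 1.80, 2.23 and 2.05 FPKM in siblings. The groups did not overlap, and the ratio of means was 2.49, less than that of supt7l. The difference was 0.99 (SE 0.14, limma adjusted p = 9.56e-04). It lost its call with sibling 2 counted as a mutant (adjusted p = 0.0627, the highest of 20 alternatives, which began at 7.55e-04). The table gives no strand, and whether reads of one gene were counted for the other was not tested. The neighbours of the other members gave 1 call among the rows tested. These rows are too few to show a departure from all rows, of which 5.59% rose and 8.74% fell. The call was that of capn9, a calpain gene 2002 bases before taf5l, with 1.71 FPKM in mutants and 0.50 FPKM in siblings on average (limma adjusted p = 0.0410). Its groups overlapped, and it was picked out by its values.

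**Figure D4:**
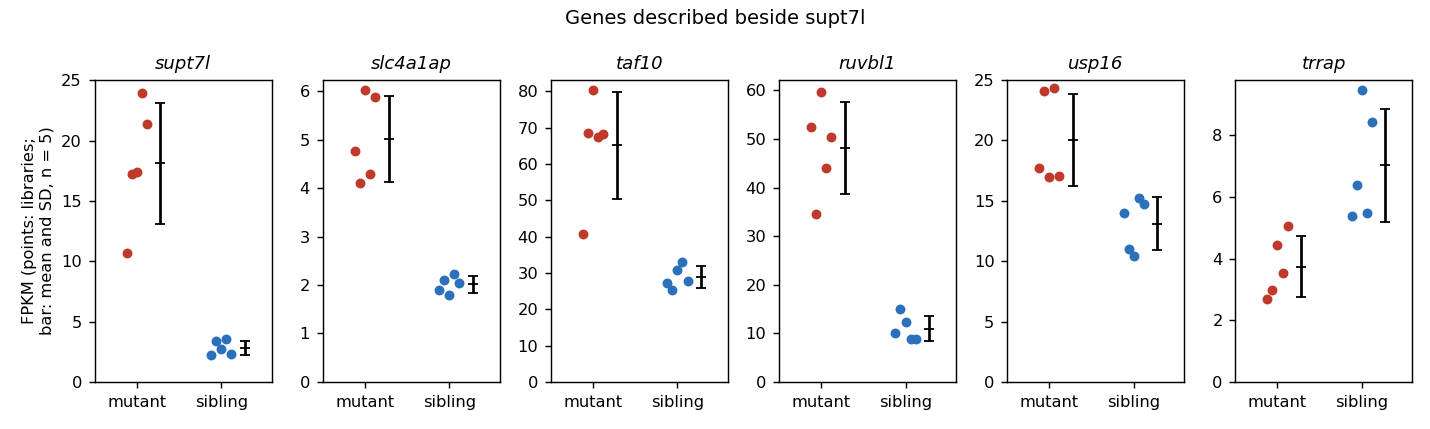
FPKM in each library (points) with mean and SD (n = 5), mutants left and siblings right, on linear axes that start at 0, for supt7l, its neighbour slc4a1ap, its partner gene taf10, ruvbl1, usp16 and trrap. Besides supt7l, chosen for its difference, the panels show only genes that passed the test. The groups are separate in all 6 panels, which follows largely from that choice of genes. Over all rows tested 12.2% had groups that did not overlap. Mutants are lower in the panel of trrap. Of the lists of related genes, ube2a and a yeats2 row also fell and are not shown.

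Complexes related to SAGA were read against all rows tested, of which 5.59% rose and 8.74% fell, and 11.4% were higher and 17.6% lower at an unadjusted p under 0.05. In ATAC, counted without the acetyltransferase, tada3l and sgf29 that it shares with SAGA, 0 of 10 tested rows rose and 1 fell. The median difference was 0.15, and at an unadjusted p under 0.05 there were 1 higher and 2 lower. The row that fell, yeats2 (ENSDARG00000097253), averaged 0.69 ± 0.39 FPKM in mutants and 2.76 ± 0.93 FPKM in siblings (SD, n = 5 each; limma adjusted p = 0.0067). It overlaps a second yeats2 row (ENSDARG00000078767, 3.75 FPKM in mutants and 6.23 FPKM in siblings, limma adjusted p = 0.0666), so its reads may be split and it is uncertain. dr1, the beta subunit of the TBP inhibitor NC2, averaged 32.7 FPKM in mutants and 20.1 FPKM in siblings and just missed the threshold (difference 0.70, limma adjusted p = 0.0508). It passed after quantile normalization (0.0299), after median of ratios scaling (0.0260) and without sibling 4 (0.0316). The dr1 call was also made with a pseudocount of 0.1 (0.0496), at a mean of at least 5 FPKM (0.0396) and with the replicate block (0.0256). The second yeats2 row passed without mutant 6 (0.0464), without sibling 2 (0.0219) and without mutant 1 and sibling 2 together (0.0336). Its call was also made with array weights (0.0272), with sibling 2 counted as a mutant (0.0324) and with the replicate block (0.0312).

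TFIID was counted without taf9, taf10 and taf12, which it shares with SAGA and of which taf10 rose. Of its 11 other tested rows 0 rose and 0 fell by limma, with a median difference of 0.14. At an unadjusted p under 0.05 there were 3 higher and 1 lower rows. taf8 passed without sibling 5 (0.0412) and taf7 without sibling 6 (0.0347). TIP60 was counted without trrap, which it shares with SAGA and which fell. Of its 17 other rows 1 rose and 0 fell, with a median difference of -0.002. At an unadjusted p under 0.05 there were 4 higher and 0 lower rows. The row that rose was ruvbl1, which encodes an ATPase of TIP60 and of chromatin remodelers. ruvbl1 (ENSDARG00000002591, chromosome 6, 40835099 to 40843496) had 52.4, 34.5, 59.6, 44.0 and 50.4 FPKM in mutants, against 10.02, 14.9, 12.3, 8.76 and 8.78 FPKM in siblings. The lowest mutant had more than the highest sibling by a wide margin, and the difference was 2.04 (SE 0.19, limma adjusted p = 5.31e-05). ruvbl2, which forms a ring with it, averaged 6.20 ± 1.66 FPKM in mutants and 3.91 ± 0.25 FPKM in siblings and did not pass (SD, n = 5 each; limma adjusted p = 0.0724), but passed after quantile normalization (0.0325) and without mutant 3 (0.0118). meaf6, a small subunit of TIP60, also passed in both (0.0314 and 0.0486) and without sibling 2 (0.0448), against limma adjusted p = 0.0609 with all libraries. After median of ratios scaling ruvbl2 (0.0352) and meaf6 (0.0214) passed, and meaf6 passed at a mean of at least 5 FPKM (0.0462).

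Among enzymes that add or remove ubiquitin on histones, the type of mark that usp22 removes, 1 of 8 tested rows rose and 1 fell, where 5.59% and 8.74% of all rows did, with a median difference of 0.08. usp16, a protease for ubiquitin on histone H2A, averaged 20.04 ± 3.82 FPKM in mutants and 13.1 ± 2.204 FPKM in siblings, with all mutants above all siblings (SD, n = 5 each; difference 0.57, limma adjusted p = 0.0362). Its call ended in 7 of 21 alternatives, over which the adjusted p ran from 0.0164 to 0.119, among them those without mutant 3, mutant 5, sibling 3 or sibling 4 (0.0879, 0.0869, 0.0798 and 0.0904). ube2a, a conjugating enzyme that works with Rnf20 and Rnf40 on histone H2B, had 5.53, 2.99, 4.53, 4.24 and 4.52 FPKM in mutants, against 6.20, 8.53, 10.9, 7.30 and 9.68 FPKM in siblings. Every mutant lay below every sibling (difference -0.82, SE 0.18, limma adjusted p = 0.0103). rnf20 averaged 16.1 FPKM in mutants and 14.6 FPKM in siblings, rnf40 averaged 10.4 FPKM in mutants and 10.5 FPKM in siblings, and neither passed.

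The 5 rows whose profile over the 10 libraries was most like that of supt7l were dnttip2, prpf3, snrnp200, dhx16 and snupn, out of 5471 rows that had a gene symbol and averaged 5 FPKM or more. Their Pearson correlations with supt7l on the log2(FPKM + 1) scale were 0.99, 0.99, 0.98, 0.98 and 0.98 over 10 libraries, a description that rests mostly on the split between the groups. prpf3, a protein of the U4/U6 particle of the spliceosome, averaged 95.1 ± 12.8 FPKM in mutants and 20.7 ± 3.87 FPKM in siblings, and dhx16, a spliceosomal helicase, 35.5 ± 3.73 FPKM in mutants and 6.59 ± 0.52 FPKM in siblings. For snrnp200, the U5 helicase, the means were 155.5 ± 23.1 FPKM in mutants and 39.7 ± 3.05 FPKM in siblings. dnttip2, a nucleolar protein gene, averaged 53.5 ± 7.21 FPKM in mutants and 29.8 ± 1.46 FPKM in siblings. snupn encodes snurportin, the import adaptor of small nuclear ribonucleoproteins, and averaged 22.9 ± 3.98 FPKM in mutants and 10.7 ± 1.49 FPKM in siblings (SD, n = 5 for each gene and group). No other member was among the 5, but of these members only supt3h, supt20 and tada1 averaged 5 FPKM or more and were searched.

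**Figure D5:**
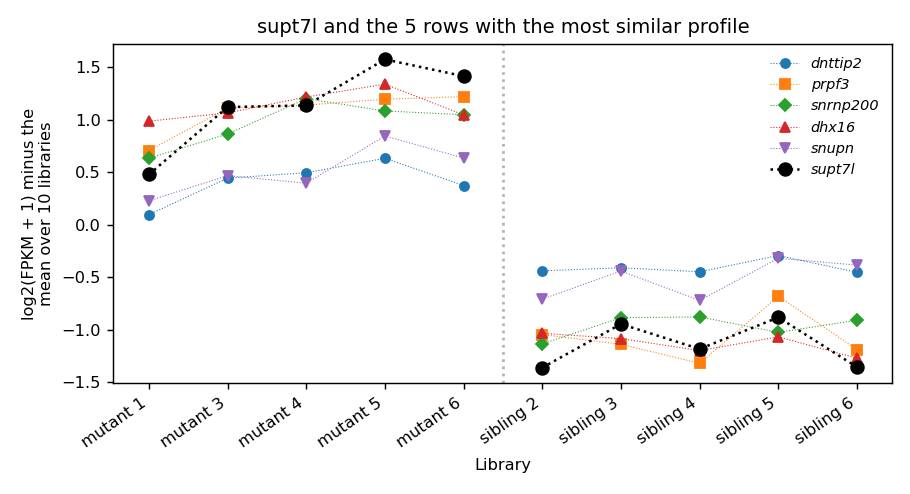
log2(FPKM + 1) minus each gene's mean over 10 libraries, for supt7l (black) and the 5 rows with the highest Pearson correlation with it, mutants left of the dotted line and siblings right; the order of libraries within a group has no meaning. All 6 genes lie above 0 in the 5 mutants and below 0 in the 5 siblings. This follows largely from choosing supt7l for its difference and the other genes for their likeness to it.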

How the data were processed

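Gata1-positive cells gave total RNA, freed of ribosomal RNA and sequenced with a stranded kit, per the labels' protocols. The authors deposited 1 table of FPKM, per the file headers, which hold no counts, so absolute depth is unknown. The submitters' processing notes list STAR 2.4.2a, Cufflinks 2.2.1, Picard and Trim Galore and the build GRCz10, and how strand was used is not stated there. Starts are those of the table plus 1 base.

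The test was limma 3.58.1 in R 4.3.3 (lmFit, eBayes with a trend) on log2(FPKM + 1) over 13003 of 32233 rows that averaged 1 FPKM or more, mutant minus sibling, with Benjamini-Hochberg adjustment over all of them and a threshold of 0.05. It was checked on simulated data with independent normal noise. That check cannot show how mixed cell types or paired libraries would affect the test. Relative depth is the commonest ratio to mutant 1 of values under 0.5 FPKM. Python 3.11.15 with pandas 2.3.3 made the summaries.

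The members and lists were chosen with earlier results of these data known. Named genes are the members, list genes past the threshold, taf9, taf10, taf12, trrap, kat2a, kat2b, sf3b3, sf3b5, sf3b1, rows that overlap a member, the nearest row on each side of supt7l, and the 5 rows most correlated with it that average 5 FPKM or more and carry a gene name, not a clone's. Other named genes were chosen after their values were seen. Alternatives were 2 other pseudocounts, 2 other filters, 2 scalings, no trend, array weights, sibling 2 as mutant, a replicate block, and leaving out libraries. Protein and promoter sequences are not used here.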

Additional observations from a re-analysis of the deposited data

Results flagged for a closer look

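In 7 of 68 sets of 5 libraries (34 named genes in each group) 1 library lay far from the other 4 of its group. The cut flags about 1 in 20 sets of independent, normally distributed values. These sets need not be of that kind, so the 7 were not compared with that rate. supt20 had 11.3 FPKM in mutant 4 and 3.85 to 5.68 FPKM in the other mutants. Genes that overlap members gave 4 of the 7. runx2a, which overlaps supt3h, had 0.79 FPKM in mutant 3 and 0 to 0.10 FPKM in the other mutants. arpc4l, which overlaps tada3l, had 31.8 FPKM in mutant 1, against 12.8 to 18.2 FPKM in the other mutants, and 30.2 FPKM in sibling 2, against 17.2 to 19.1 FPKM in the other siblings. agtrap, which also overlaps tada3l, had 5.96 FPKM in mutant 1 and 1.103 to 2.38 FPKM in the other mutants. Of the genes with a profile like that of supt7l, dnttip2 had 32.3 FPKM in sibling 5 and 28.8 to 29.7 FPKM in the other siblings, and prpf3 had 72.8 FPKM in mutant 1 and 96.8 to 104.4 FPKM in the other mutants. The cause was not tested in any of them.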

How the results depend on the processing

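The supt7l difference of 2.29 stayed positive under all 21 alternatives, which is no test of it, as supt7l was chosen for this difference. It was 1.54 with a pseudocount of 5 and 1.82 with sibling 2 counted as a mutant, and 2.18 to 2.46 when 1 library was left out. None of the other 9 members passed under any alternative that tested it. Over all rows 727 rose and 1137 fell. With sibling 2 counted as a mutant 300 rose and 461 fell, and 755 fell when rows had to average 5 FPKM, which tests fewer of them; leaving out 1 library gave 524 to 735 rises and 741 (without sibling 4) to 1238 falls. The fold change scale, unknown depth and the pseudocount limit what can be seen of members near 2 FPKM. The larger shift of the median of all rows by a scaling was 0.07.

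Counts of calls in the lists moved by 1 or 2 genes, and the cause was not tested. With sibling 2 counted as a mutant, 0 other SAGA subunits rose, 2 ATAC rows fell and 0 histone ubiquitin enzymes rose. At a mean of at least 5 FPKM 1 ATAC row rose and 0 fell and 2 TIP60 rows rose. With a pseudocount of 0.1 1 ATAC row rose, with array weights 2 fell, and with no filter 0 histone ubiquitin enzymes rose. After either scaling 1 ATAC row and 3 TIP60 rows rose. Without mutant 1 and sibling 2 together 2 other SAGA subunits and 2 ATAC rows fell. Leaving out 1 library gave 1 to 2 rises and 0 to 2 falls among other SAGA subunits, 0 to 1 and 1 to 2 in ATAC, 0 to 1 rises in TFIID, 1 to 3 in TIP60 and 0 to 1 among histone ubiquitin enzymes.

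The replicate numbers 3 to 6 occur in both groups. Deviations of same-numbered libraries from their group means had correlations of -0.03, 0.09, 0.10 and 0.15. The highest correlation between the groups was 0.30, of mutant 1 with sibling 2, whose numbers differ. Among the 5 libraries of the other group, 4 of 8 libraries correlated best with their own number. These values do not settle whether the numbers are pairs. The main test did not take them as pairs, and a replicate block was run as an alternative. With the replicate block, in which mutant 1 and sibling 2 have no partner and drop out of the difference, 701 rows rose and 1158 fell, the supt7l difference was 2.403, 2 other SAGA subunits fell, 1 ATAC row rose and 2 fell, and 0 histone ubiquitin enzymes rose.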
